A study of Rattus norvegicus with 30 samples.

Results

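The circadian clock of the liver and its immediate outputs were read here from 10 genes: Nr1d1, Nr1d2, Dbp, Per1, Per2, Per3, Cry1, Noct, Npas2 and Bmal1 (also called Arntl). All 10 were found by their symbols in the platform annotation, among 14217 genes that could be read from a probe set of their own. They were measured by 14 of 31042 probe sets, each a group of short probes summarized to 1 value per array. Nr1d2 had 3 probe sets, Per2 and Per3 had 2 each, and the other genes had 1. Where a gene had several, the one with the highest mean over all arrays represents it.

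The samples were livers of Wistar/Han rats given DE71, a commercial mixture of polybrominated diphenyl ethers (PBDE) used as a flame retardant, by gavage in corn oil. There were 6 groups of 5 livers, 1 array each. The adult PBDE males and their adult male controls were killed at week 13. The male and female PBDE pups and the male and female control pups were killed on postnatal day 22. All PBDE groups received 50 mg/kg, through the dam from gestation day 6 to postnatal day 21 and by direct dosing of the pup up to that day. Adult PBDE males were dosed on after weaning, on a schedule with fewer days per week. All controls came from the 0 mg/kg arm. Every pup had a different dam, and so had every adult within its dose group. The hour at which the livers were taken is not given in the sources used here, so position in the daily cycle could not be a term in any fit.

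The liver clock is a feedback loop that runs through a day. BMAL1 pairs with CLOCK or its relative NPAS2, and the pair switches on genes that carry E-boxes, among them the Per and Cry genes, Nr1d1, Nr1d2 and Dbp. PER and CRY proteins then block that pair, while the nuclear receptors encoded by Nr1d1 and Nr1d2 (REV-ERBα and REV-ERBβ) repress Bmal1 and Npas2 through ROR elements. DBP and its relatives TEF and HLF carry the rhythm to metabolic genes through D-boxes, where NFIL3 competes as a repressor. Because of this wiring, Bmal1 and Npas2 peak at another phase of the day than Nr1d1 and Dbp, and Cry1 lags behind the other repressors.

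The promoter sequences below hold letter matches to the kinds of element through which these genes are known to regulate each other. They are the bases before the annotated gene start in RefSeq's rat assembly GRCr8, read 5′ to 3′ on the gene's strand, with matched motifs in capitals. In Bmal1 the capitals mark a ROR element, in Nr1d1 an E-box, and in Per2 a D-box followed by an E′-box.
Bmal1 (chr1:176766078-176766327, plus strand): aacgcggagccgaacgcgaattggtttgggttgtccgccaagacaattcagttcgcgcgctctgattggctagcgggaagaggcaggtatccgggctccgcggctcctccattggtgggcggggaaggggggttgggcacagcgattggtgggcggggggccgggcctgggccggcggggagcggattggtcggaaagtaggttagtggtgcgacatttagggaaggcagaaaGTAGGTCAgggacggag
Nr1d1 (chr10:84229455-84229704, minus strand): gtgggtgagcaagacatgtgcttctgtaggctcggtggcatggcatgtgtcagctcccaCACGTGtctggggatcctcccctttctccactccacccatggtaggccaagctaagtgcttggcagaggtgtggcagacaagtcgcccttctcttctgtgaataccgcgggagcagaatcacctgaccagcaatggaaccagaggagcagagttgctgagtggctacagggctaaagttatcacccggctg
Per2 (chr9:99496994-99497243, minus strand): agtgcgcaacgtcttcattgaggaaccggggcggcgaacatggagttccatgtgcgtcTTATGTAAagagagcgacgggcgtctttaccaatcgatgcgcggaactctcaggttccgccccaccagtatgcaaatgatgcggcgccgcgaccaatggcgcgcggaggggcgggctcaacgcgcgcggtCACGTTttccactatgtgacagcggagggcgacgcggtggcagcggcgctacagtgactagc

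RefSeq promoters of 250 bases before to 50 bases after the start were matched by symbol for 9 of the 10 genes, as 10 promoters with 2 for Nr1d1. On both strands, the search was for the E-box CACGTG, the E′-box CACGTT, the D-boxes TTATGTAA and TTACGTAA, the ROR elements NTAGGTCA and NTGGGTCA, and the cyclic AMP element TGACGTCA. Of the 10 promoters, 4 held a match. Those of Nr1d2, Dbp, Per1, Per3, Noct and Npas2 held none in this window. In Bmal1 the ROR element began 17 bases before the start, at offset -17. In the Nr1d1 promoter shown, the E-box began at offset -191. The other Nr1d1 promoter held an E′-box on the opposite strand at offset -174. Per2 held its D-box at offset -192 and its E′-box at offset -62. None of these motifs overlapped another. Over all 33469 promoters of this length, 6.42% held the E-box, 4.83% the E′-box, 1.01% a D-box, 6.57% a ROR element and 1.83% the cyclic AMP element. A match is a description of the letters in this window and not evidence that a factor binds there.

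In adult males, the PBDE livers held more message for both REV-ERB genes and less for Cry1 than the control livers. Nr1d1 changed most, by 2.60 ± 0.39 on the log2 scale (PBDE minus control, ± SE), a 6.04-fold difference, with 5 livers in each group. Here and below, the SE of a change comes from the fit over all arrays, with a spread shared by all groups. It is thus not the spread of the compared livers alone. For Nr1d1 their SD was 1.27 in adult PBDE livers and 0.66 in adult controls. Nr1d2 rose by 1.46 ± 0.30, and Cry1 fell by 1.18 ± 0.22. Dbp, Per3, Noct and Bmal1 had mean changes of 1.37, 1.14, 0.65 and -0.79, and none of them passed the test. Per1, Npas2 and both probe sets of Per2 had mean changes close to 0.

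Nr1d1 had log2 values of 6.82, 6.19, 7.73, 8.42 and 9.40 in the 5 adult PBDE livers, against 4.41, 4.85, 5.94, 4.69 and 5.70 in the 5 adult control livers. Every PBDE liver lay above every control liver, and the lowest PBDE value was just above the highest control value. The adjusted p was 0.000143 (limma, Benjamini-Hochberg over 31042 probe sets). Most of the adult control values lay below the array medians of 5.72 to 5.77, where RMA values compress differences. Nr1d1 was the 1 probe set of 14 whose adult groups did not overlap, where 3.71% of all probe sets had no overlap.

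Nr1d2 had values of 8.66, 8.14, 9.16, 9.78 and 10.50 in adult PBDE livers, against 7.52, 7.26, 8.85, 7.57 and 7.76 in adult control livers (adjusted p 0.00567, limma). One control liver, replicate 3, lay among the PBDE values, and the other controls lay below all of them. The same control liver had the highest Nr1d1 value of its group. A second Nr1d2 probe set, 1370541_at, rose by 1.12 ± 0.31 (adjusted p 0.0462, limma), a call that was lost in 11 of 17 alternative settings, with adjusted p up to 0.242. The third, 1370540_at, lay between 3.35 and 4.00 on all 30 arrays and showed no difference that passed the test.

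Cry1, the repressor that blocks the BMAL1 pair late in the cycle, had values of 7.49, 7.95, 7.45, 7.03 and 6.78 in adult PBDE livers, against 9.03, 8.82, 7.65, 8.51 and 8.61 in adult control livers. The groups overlapped through 1 control liver, again replicate 3, which lay below the highest PBDE value. The adjusted p was 0.0023 (limma). In bulk liver, fewer cells of a type and less RNA per cell cannot be told apart.

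In all, 4 of the 14 probe sets were called in adults at a false discovery rate of 0.05, where 2.98% of all probe sets were called. Of the 14, 3 were called higher, where 1.33% of all probe sets were, and 1 lower, where 1.64% were. An unadjusted limma p under 0.05 was seen for 7 of the 14, where 16.4% of all probe sets had one. The median change over the 10 genes was 0.32, beside 0.01 over all 14217 genes. When only the 2 adult groups were fitted, so that they alone set the spread, Nr1d1 was the only one still called, with an adjusted p of 0.0403. Nr1d2 (1390430_at) then had an adjusted p of 0.134 and Cry1 one of 0.0583.

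**Figure D1:**
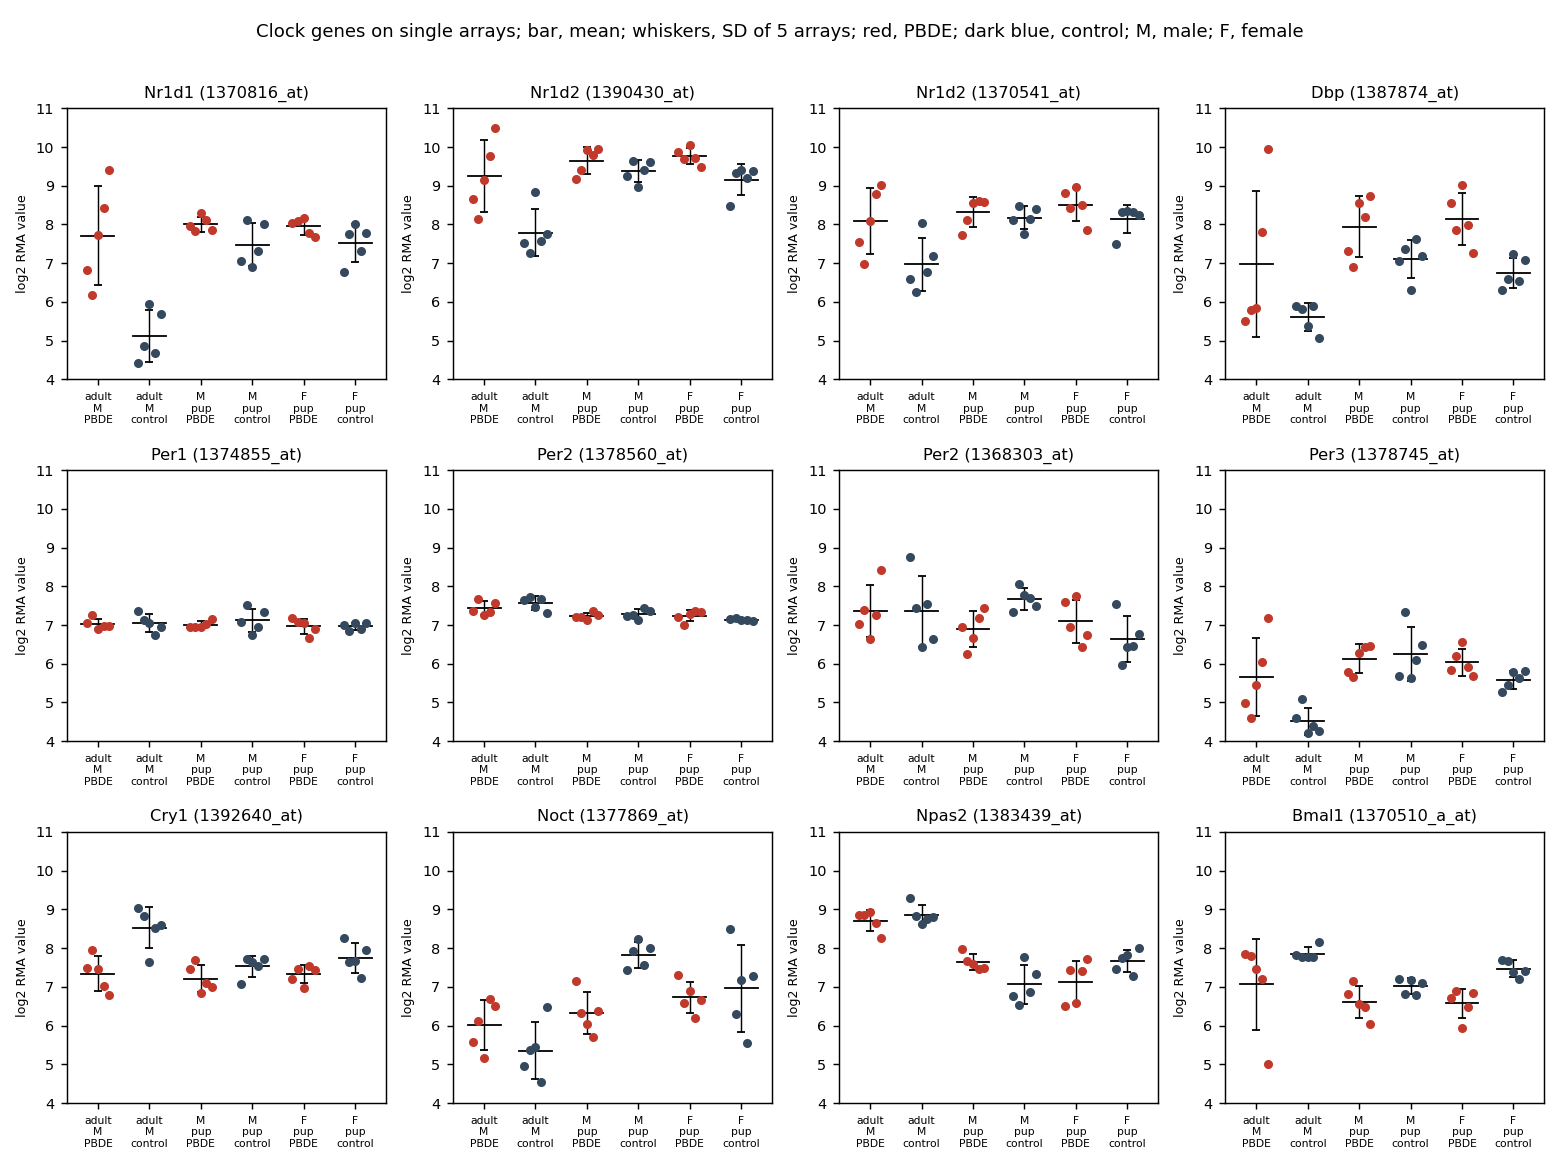
Log2 RMA values (vertical axis) of 12 clock probe sets in each of the 6 groups (horizontal axis), 1 point per liver, with a bar at the group mean and whiskers of 1 SD over 5 livers. In adult males the Nr1d1 points of PBDE livers all lie above those of control livers, and the Dbp points of PBDE livers spread from 5.52 to 9.95 while those of control livers stay between 5.08 and 5.90.

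The other members showed how unlike the single adult PBDE livers were. Dbp, the output factor that acts on D-boxes, had values of 5.52, 5.79, 5.85, 7.81 and 9.95 in adult PBDE livers, against 5.89, 5.83, 5.38, 5.90 and 5.08 in adult control livers. Replicates 1 to 3 of the PBDE group lay within the control range, and replicates 4 and 5 lay far above it. The range of the PBDE group was 4.43 log2 units, or 21.6-fold, and its SD of 1.89 compared with 0.37 in controls. The control values, and those of PBDE replicates 1 to 3, lay close to or below the array medians of 5.72 to 5.77. RMA values compress differences at low signal, and the part of this in the 2 SDs was not tested. The mean change of 1.37 ± 0.54 did not pass (adjusted p 0.18, limma), and it was 0.63 without replicate 5.

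Per3, a member of the period family of repressors, had values of 4.99, 4.59, 5.45, 6.04 and 7.18 in adult PBDE livers, against 4.6, 5.09, 4.21, 4.39 and 4.26 in adult control livers. Replicates 3, 4 and 5 of the PBDE group lay above all controls, and replicates 1 and 2 lay within the control range. The change of 1.14 ± 0.33 had an adjusted p of 0.056 (limma), and it passed in 3 of 16 alternatives. The other Per3 probe set, 1388239_at, had group means between 4.03 and 4.18 throughout.

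Bmal1, the activator without which the loop stops, had values of 7.85, 7.81, 7.45, 7.21 and 5.01 in adult PBDE livers, against 7.83, 7.78, 7.76, 7.76 and 8.16 in adult control livers. The controls were tightly grouped, with an SD of 0.17, and PBDE replicate 5 lay far below every other adult. The change of -0.79 ± 0.32 had an adjusted p of 0.195 (limma), and it was -0.28 without replicate 5.

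Noct encodes nocturnin, a rhythmic enzyme long described as a deadenylase and later as a phosphatase of nicotinamide cofactors. It had values of 5.58, 6.13, 5.15, 6.68 and 6.51 in adult PBDE livers, against 4.95, 5.37, 5.44, 4.54 and 6.48 in adult control livers. Of these controls, 4 lay below the array medians. The groups overlapped widely, and the change of 0.65 ± 0.39 did not pass (adjusted p 0.434, limma). Npas2 changed by -0.15 ± 0.22 and Per1 by -0.01 ± 0.12 in adults, and neither passed. Per1, a period gene that also answers to hormonal and feeding cues, stayed between 6.67 and 7.51 on all 30 arrays. The Per2 representative, 1378560_at, was almost as flat, with group means between 7.14 and 7.56, while the other Per2 probe set, 1368303_at, ranged from 5.96 to 8.75. The probe sets of Per2 thus disagreed in how much they varied, and which of them follows the message better was not tested.

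**Figure D2:**
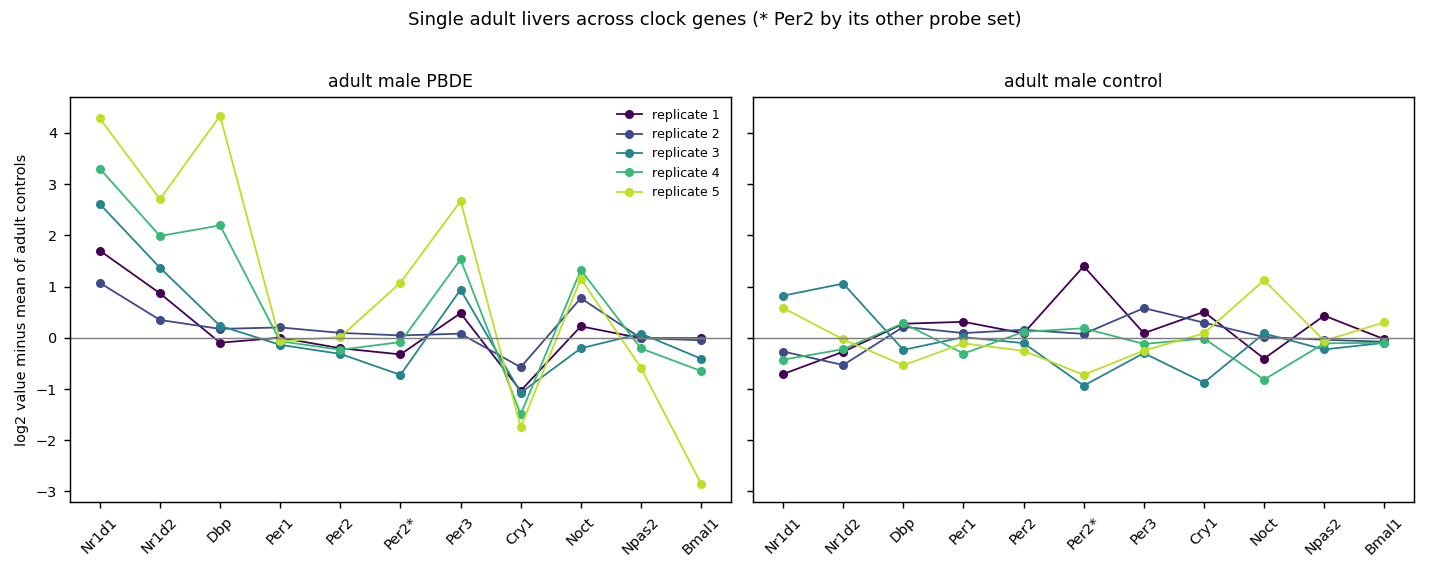
Log2 value minus the mean of the adult controls (vertical axis) for each clock gene (horizontal axis) in the 5 adult PBDE livers (left) and the 5 adult control livers (right), 1 line per liver. PBDE replicates 4 and 5 lie high for Nr1d1, Nr1d2, Dbp and Per3 and low for Cry1 and Bmal1, and PBDE replicate 2 lies nearest to 0 for most of these genes.

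For 7 of the 10 genes, PBDE replicates 5 and 4 held the outermost values of their group on one side. Replicate 5 had the highest value of its group for Nr1d1, Nr1d2, Dbp and Per3 and the lowest for Cry1, Npas2 and Bmal1. Replicate 4 came next to it for all of these genes. Replicate 2 had the lowest value for Nr1d1, Nr1d2 and Per3 and the highest for Cry1. The other genes ran in another order, with Noct highest in replicate 4, and Per1 and the flat Per2 probe set highest in replicate 2, while all 3 were lowest in replicate 3. Among adult controls no such common order ran through all the genes, although replicate 3 had the highest Nr1d1 and Nr1d2 values and the lowest Cry1 value.

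A range of at least 2 log2 units among the 5 adult PBDE livers was seen for 6 of the 14 probe sets, where 0.512% of all probe sets had one. In adult controls it was seen for 1, Per2 by 1368303_at, where 0.37% of all probe sets had one. The SD was larger in adult PBDE livers than in adult controls for 9 of the 14 probe sets, where 53.5% of all probe sets showed this. The median SD of the 14 probe sets was 0.66 in adult PBDE livers, beside 0.16 over all probe sets, and 0.36 in adult controls, beside 0.15. The SD lay above the 99th percentile of all probe sets for 7 of the 14 in adult PBDE livers and for 5 in adult controls. In the pup groups this held for 1 to 3 of them. Without PBDE replicate 5, 2 of the 14 kept a range of at least 2, and without PBDE replicate 2, 4 did.

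PBDE replicate 5 also stood apart in array quality. Its 3′ signal for Gapdh exceeded the 5′ signal by 2.25 log2 units, against 0.729 to 1.05 on the other adult PBDE arrays and 0.317 to 0.775 on adult control arrays. A larger difference goes with shorter labelled RNA. Its mean correlation with the other arrays of its group was 0.988, the lowest of the 30 arrays. In pups the same Gapdh measure ran from 0.752 to 2.96. Without PBDE replicate 5, Nr1d1 still rose by 2.17 (adjusted p 0.0004, limma), Nr1d2 (1390430_at) by 1.14 (adjusted p 0.0242, limma) and Cry1 still fell by 1.04 (adjusted p 0.0115, limma). With the Gapdh difference as a covariate, Nr1d1 rose by 2.33, Nr1d2 by 1.28 and Cry1 fell by 1.16, all still called. Nr1d2 by 1370541_at lost its call in both.

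The hepatocyte markers, which define the labelled tissue, averaged 13.89 to 14.27 on the log2 scale on all arrays (7 of 8 read), with 13.94 to 14.08 in adult PBDE livers and 14.03 to 14.17 in adult controls. In adults none of the 7 hepatocyte, 4 lymphocyte, 5 stellate or 3 erythroid marker genes passed the limma test, and none of them had an unadjusted p under 0.05. Of 5 endothelial markers 0 passed and 1 had an unadjusted p under 0.05. Of 3 cholangiocyte markers 1 was called higher, where 1.86% of all genes were. Of 7 macrophage markers 0 passed, but 6 had an unadjusted p under 0.05, where 18.5% of all 14217 genes had, with a median change of -0.42. The mean log2 value of these 7 ran from 8.26 to 8.91 in adult PBDE livers and from 8.77 to 9.44 in adult controls, and their part in the clock result was not tested. Genes that answer to cues known to set the liver clock were also read as lists, by representative probe sets. In adults 0 of 7 glucocorticoid-responsive genes passed, with 1 at an unadjusted p under 0.05, 0 of 6 feeding- and fasting-responsive genes, with 0, and 0 of 4 temperature-responsive genes, with 1 (limma). The mean log2 value of the 4 temperature-responsive genes was 7.97 to 8.12 in adult PBDE livers and 7.83 to 7.92 in adult controls, with no overlap. For the glucocorticoid-responsive and the feeding- and fasting-responsive lists the adult groups overlapped. The part of these cues in the clock result was not tested.

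In pups, none of the 14 probe sets passed at the false discovery rate of 0.01 that the design sets for them. In male pups 0 of the 14 were called, where 5.33% of all probe sets were, and 3 had an unadjusted limma p under 0.05, where 23.4% of all had. In female pups 0 of the 14 were called, where 4.24% of all were, and again 3 had an unadjusted limma p under 0.05, where 20.3% of all had. Neither share of the 14 was far from that of all probe sets. The median change of the 10 genes was -0.08 in male pups and 0.05 in female pups, beside 0.02 over all genes in both.

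Markers of liver cell types also differed between PBDE and control pups. The mean of the 7 hepatocyte markers was 13.89 to 14.03 in male PBDE pups and 14.08 to 14.24 in male control pups, and 13.89 to 14.02 in female PBDE pups and 14.08 to 14.27 in female control pups. The mean of the 5 endothelial markers was 8.68 to 8.98 in male PBDE pups and 9.24 to 9.46 in male control pups, and 8.87 to 9.12 in female PBDE pups and 9.23 to 9.42 in female control pups. For both lists the PBDE pups thus lay wholly below the controls in each sex. The 7 macrophage markers averaged 8.57 to 8.72 in male PBDE pups and 8.93 to 9.14 in male control pups, again with no overlap, and overlapped in females. By limma, 1 hepatocyte, 2 endothelial and 1 macrophage marker fell in male pups, where 3.26% of all genes did. In female pups 2 hepatocyte, 1 endothelial, 0 macrophage and 2 of 5 stellate markers fell, where 2.18% of all genes did. The stellate markers did not fall as a list. Their median change in female pups was 0.25, with 0 called higher and 4 at an unadjusted limma p under 0.05. Of 3 cholangiocyte markers 1 rose in each sex, where 4.23% of all genes rose in male and 3.95% in female pups. The median change of the 3 markers was 0.12 in male and -0.15 in female pups. The 3 erythroid markers, none of which passed, averaged 9.20 to 9.67 in female PBDE pups and 8.66 to 9.19 in female control pups. The part of these shifts in the clock values of pups was not tested.

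Noct came nearest to the threshold in male pups. It had values of 7.16, 6.33, 6.05, 5.70 and 6.37 in male PBDE pups, against 7.43, 7.92, 8.23, 7.56 and 8.0 in male control pups. All PBDE pups lay below all controls, which held for 1 of the 14 probe sets, where 8.83% of all probe sets did not overlap. The change of -1.51 ± 0.39 had an adjusted p of 0.0112 (limma), just over the limit, and it passed in 6 of 17 alternatives. In female pups Noct ranged from 6.20 to 7.30 with PBDE and from 5.55 to 8.5 in controls, and its change of -0.23 ± 0.39 did not pass.

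In female pups the groups did not overlap for 3 of the 14 probe sets, where 8.21% of all probe sets did not. Dbp had values of 8.55, 7.85, 9.01, 7.99 and 7.27 in female PBDE pups, against 6.30, 6.58, 7.23, 6.55 and 7.07 in female control pups. Every PBDE pup lay above every control, the lowest by a narrow margin. The change of 1.39 ± 0.54 had an adjusted p of 0.119 (limma), and of 0.00854 when only these 2 groups were fitted.

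Bmal1 had values of 6.70, 6.89, 5.95, 6.49 and 6.83 in female PBDE pups, against 7.69, 7.68, 7.38, 7.20 and 7.42 in female control pups. Here every PBDE pup lay below every control. The change of -0.90 ± 0.32 had an adjusted p of 0.0823 (limma), and of 0.00468 in the fit of these 2 groups alone. Nr1d2 (1390430_at) was the remaining one, with 9.49 to 10.05 in female PBDE pups and 8.47 to 9.41 in female control pups. The female PBDE pups carry another prefix in their array names than the female controls, taken here as another array batch, so dose and batch cannot be told apart for them, whereas both male pup groups lay in 1 batch and both adult groups in the other.

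Dbp in male pups had values of 7.32, 6.91, 8.56, 8.20 and 8.73 with PBDE, against 7.06, 7.36, 6.32, 7.62 and 7.19 in controls. The groups overlapped, and the change of 0.84 ± 0.54 did not pass. Nr1d1 in male pups ran from 7.82 to 8.29 with PBDE and from 6.89 to 8.11 in controls. In female pups it ran from 7.67 to 8.18 with PBDE and from 6.76 to 8.02 in controls. In both sexes the PBDE pups were close together and the controls were spread over a wider range that reached into the PBDE values.

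**Figure D3:**
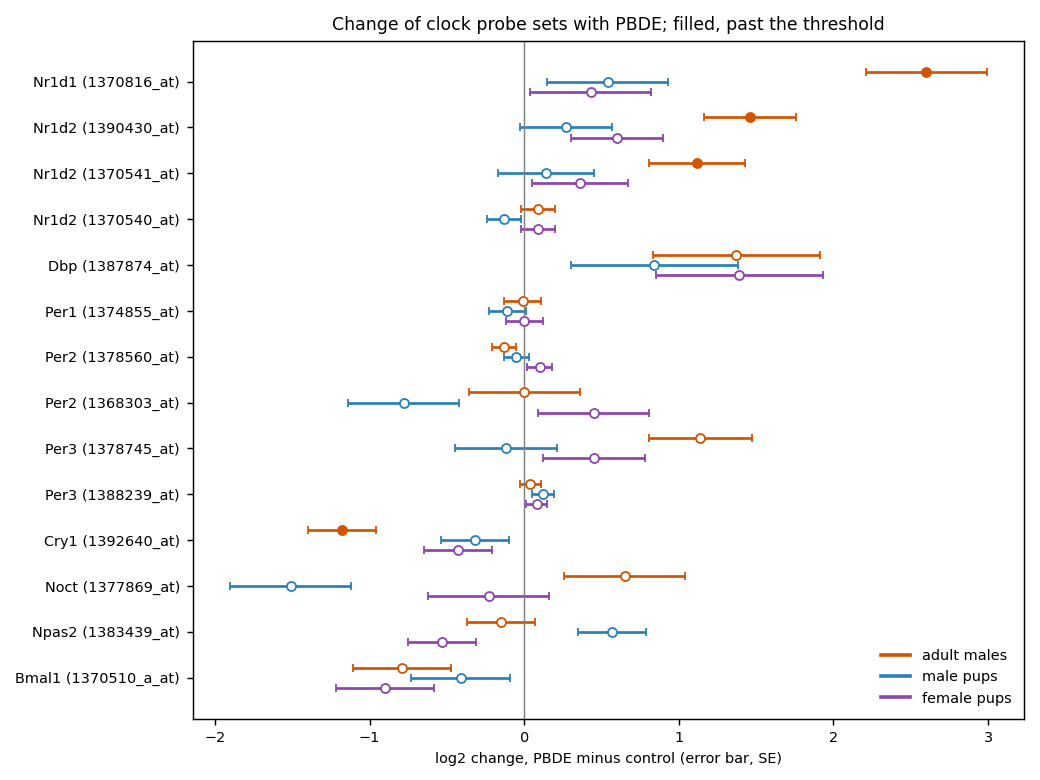
Change with PBDE (PBDE minus control, log2, horizontal axis) of each of the 14 clock probe sets (vertical axis) in adult males, male pups and female pups, with SE bars from the fit over 30 arrays and filled points where the comparison passed its threshold. The 4 filled points are all of adult males: Nr1d1, Nr1d2 by 2 probe sets, and Cry1.

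The difference between the dose effects of adult males and male pups was tested directly. It passed for 2 of the 14 probe sets at a false discovery rate of 0.05, where 1.87% of all probe sets did. For Nr1d1 the change in adults exceeded that in male pups by 2.06 ± 0.55 (adjusted p 0.0457, limma). For Noct it did so by 2.16 ± 0.56 (adjusted p 0.0391, limma), with 0.65 in adults and -1.51 in male pups. Both calls lay close to the limit. That of Nr1d1 was lost in 16 of 27 alternatives and that of Noct in 15 of 27, with adjusted p up to 0.108 for Nr1d1 and 0.0829 for Noct. For Nr1d2 by 1390430_at and for Cry1, the difference between the ages did not pass, with adjusted p of 0.173 and 0.179 (limma). Adults and pups lay in different array batches, and adults were dosed on after weaning. Age, batch and length of dosing thus cannot be told apart in this comparison.

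No clock probe set passed the test between the sexes of the pups. The male PBDE pups lay in the first array batch and the female PBDE pups in the second, so sex and batch cannot be told apart among PBDE pups or in the sex-by-dose term, whereas both control groups lay in the first. Between male and female PBDE pups 0 of the 14 were called, where 0.0451% of all probe sets were, and 1 had an unadjusted limma p under 0.05, where 4.78% of all had. Between male and female control pups 0 of the 14 were called, where 0.0354% of all were, and 3 had an unadjusted limma p under 0.05, where 8.24% of all had. The sex-by-dose term was called for 0 of the 14, where 0.0% of all probe sets were called by limma, and 3 of the 14 and 5.08% of all had an unadjusted p under 0.05.

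Npas2, the relative of CLOCK, had the smallest of those sex-by-dose p-values. In male pups it had 7.98, 7.66, 7.60, 7.45 and 7.5 with PBDE, against 6.77, 6.54, 7.78, 6.88 and 7.34 in controls. In female pups it had 6.51, 7.44, 6.58, 7.42 and 7.71 with PBDE, against 7.45, 7.75, 7.83, 7.29 and 8.01 in controls. Every male PBDE pup lay above 4 of the 5 male controls, 2 female PBDE pups lay below all female controls, and the other values overlapped. The dose effect was larger by 1.11 ± 0.31 in males than in females, a difference that includes that between the array batches of the PBDE pups, with an adjusted p of 0.741 (limma).

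Adult control males differed from male control pups in most clock genes. The REV-ERB genes, Noct, Per3 and Dbp were lower in adults, and Npas2, Cry1 and the flat Per2 probe set were higher. The 2 groups lay in different array batches, so age and batch cannot be told apart in any of these values. Of the 14 probe sets, 9 were called, where 23% of all probe sets were. Of the 14, 3 were higher, where 10.3% of all were, and 6 were lower, where 12.7% of all were. The groups did not overlap for 7 of them, where 16% of all did not.

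Nr1d1 averaged 5.12 ± 0.66 in adult controls and 7.47 ± 0.55 in male control pups (SD, n = 5 each), a difference of -2.36 ± 0.39 (SE, adjusted p 3.64e-05, limma). Noct had 4.95, 5.37, 5.44, 4.54 and 6.48 in adult controls, against 7.43, 7.92, 8.23, 7.56 and 8.0 in male control pups, a difference of -2.47 ± 0.39 (adjusted p 2.22e-05, limma). Both genes had every adult control below every pup control. Nr1d2 differed by -1.59 ± 0.30 (1390430_at) and Per3 by -1.74 ± 0.33 (1378745_at), again with no overlap.

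Npas2 had 9.29, 8.82, 8.63, 8.75 and 8.80 in adult controls, against 6.77, 6.54, 7.78, 6.88 and 7.34 in male control pups. The adults lay in a narrow band above all the pups, with a difference of 1.79 ± 0.22 (adjusted p 3.15e-07, limma). Cry1 averaged 8.52 ± 0.53 in adult controls and 7.54 ± 0.27 in male control pups (SD, n = 5 each), a difference of 0.99 ± 0.22 (adjusted p 0.00146, limma). Dbp differed by -1.49 ± 0.54 (adjusted p 0.0443, limma), a call lost in 12 of 17 alternatives, and by -0.60 with the Gapdh 3′ minus 5′ difference as a covariate. That Gapdh measure was 0.317 to 0.775 in adult controls and 1.2 to 2.07 in male control pups. Bmal1 was higher in every adult control than in every male control pup, by 0.84 ± 0.32, and did not pass (adjusted p 0.0581, limma).

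Within groups, 7 of the 10 clock genes tended to move together from liver to liver, in 2 opposed blocks, though not every pair across the blocks passed. Each gene's values were expressed as deviations from its group mean over the 30 arrays, which takes out the differences between groups, and all 45 pairs of the 10 genes were correlated. P-values came from 100000 permutations of deviations within groups, two-sided, adjusted over the 45 pairs. Of these pairs, 18 passed an adjusted p of 0.05, 9 with positive and 9 with negative r, and 14 of the 18 also passed by Spearman's rho. Of the 18, 7 kept an absolute r of at least 0.5 without the 2 arrays farthest from the median of the pair's first gene. Among the 7 genes, Nr1d1 with Npas2 (r = -0.34), Per3 with Npas2 (r = -0.41) and Per3 with Cry1 (r = -0.32) did not pass. All 18 had the same sign in both array batches, and the same sign in the 20 pup and the 10 adult arrays, but not the same strength. Nr1d1 with Cry1 had r = -0.83 in adults, -0.14 in pups and -0.08 in the first array batch. Nr1d1 with Bmal1 had r = -0.73, -0.26 and -0.25 in the same order. Nr1d2 with Dbp went the other way, with 0.69 in adults and 0.80 in pups.

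**Figure D4:**
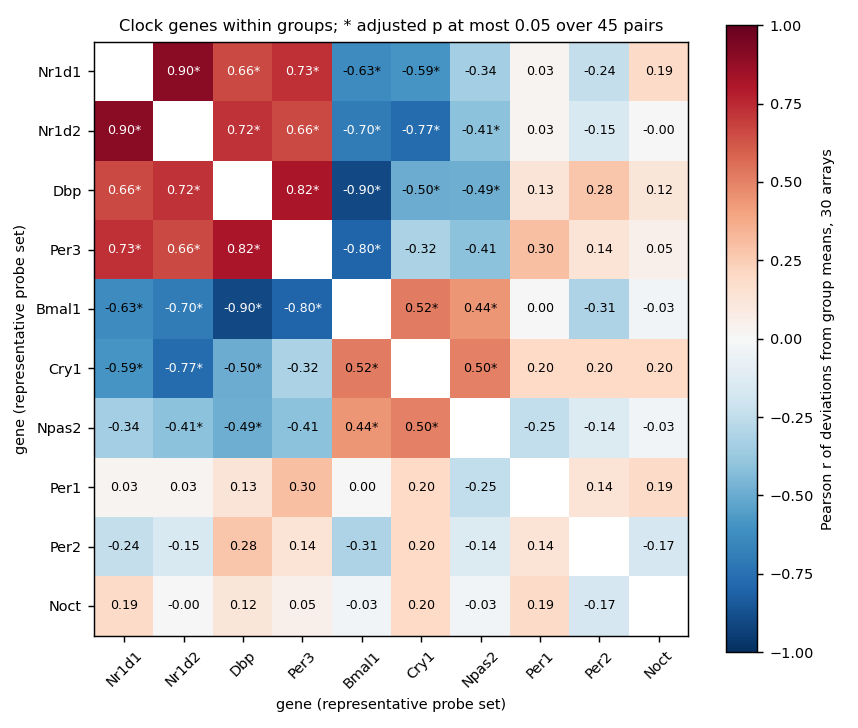
Pearson r (colour and number) between deviations from group means for each pair of clock genes (both axes) over 30 arrays, with an asterisk where the permutation p adjusted over 45 pairs was at most 0.05. Nr1d1, Nr1d2, Dbp and Per3 correlate positively with each other and negatively with Bmal1, and Per1, Per2 and Noct have no asterisk.

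Nr1d1, Nr1d2, Dbp and Per3 formed one block. Nr1d1 and Nr1d2 had r = 0.90 and rho = 0.86 (permutation p 1e-05 for both, the smallest that 100000 permutations can give, adjusted p 0.00015 and 0.00045), and r = 0.82 without the 2 arrays farthest from the median of Nr1d1. Dbp and Per3 had r = 0.82 and rho = 0.77 (permutation p 1e-05 and 9e-05, adjusted p 0.00015 and 0.00101), and r = 0.71 without the 2 farthest arrays. In pups alone these 2 pairs had r = 0.79 and r = 0.65.

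Bmal1 opposed this block. With Dbp it had r = -0.90 and rho = -0.77 (permutation p 3e-05 and 5e-05, adjusted p 0.000337 and 0.00101), and r = -0.78 without the 2 arrays farthest from the median of Dbp. The relation had r = -0.94 in the adult arrays, r = -0.79 in the pup arrays, r = -0.80 in the first array batch and r = -0.92 in the second. With Per3 Bmal1 had r = -0.80 and rho = -0.70 (permutation p 1e-05 and 7e-05, adjusted p 0.00015 and 0.00101), and r = -0.72 without the 2 farthest arrays. Livers with more Dbp and Per3 message thus had less Bmal1 message, in pups as in adults.

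Cry1 and Npas2 stood nearer to Bmal1. Cry1 and Nr1d2 had r = -0.77 and rho = -0.69 (permutation p 8e-05 and 0.0003, adjusted p 0.00072 and 0.00225), and r = -0.71 without the 2 farthest arrays. Cry1 and Bmal1 had r = 0.52 and rho = 0.51 (permutation p 0.00255 and 0.00621, adjusted p 0.00967 and 0.0233), and r = 0.50 without the 2 farthest arrays. Npas2 and Bmal1 had r = 0.44 and rho = 0.51 (permutation p 0.00471 and 0.005, adjusted p 0.0151 and 0.0205).

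Several pairs of the REV-ERB genes were weaker without adult PBDE replicates 2 and 5, the 2 arrays farthest from the median for both. Nr1d1 and Bmal1 had r = -0.63 over all arrays (permutation p 0.00934, adjusted p 0.0233) but r = -0.25 without them, and rho = -0.37 (permutation p 0.0563, adjusted p 0.133). Without them r was 0.39 instead of 0.66 for Nr1d1 with Dbp, and 0.41 instead of 0.66 for Nr1d2 with Per3. By rho, Nr1d1 with Dbp, Nr1d1 with Cry1 and Dbp with Npas2 also missed the threshold. Dbp with Npas2 was as strong without its 2 farthest arrays, at r = -0.46 instead of -0.49. Per1, Noct and the flat Per2 probe set took part in no pair that passed. Per2 was also read from 1368303_at instead, a choice made after its values were seen. It then correlated with Dbp at r = 0.54 and rho = 0.51 (permutation p 0.00186 and 0.00625, adjusted p 0.00846 and 0.0216). By r it also passed with Bmal1 (r = -0.5, adjusted permutation p 0.02), Per3 (r = 0.44, adjusted permutation p 0.0348) and Per1 (r = 0.43, adjusted permutation p 0.0467). By rho Bmal1 passed (adjusted permutation p 0.0457), and Per3 and Per1 did not (0.0505 for both).

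**Figure D5:**
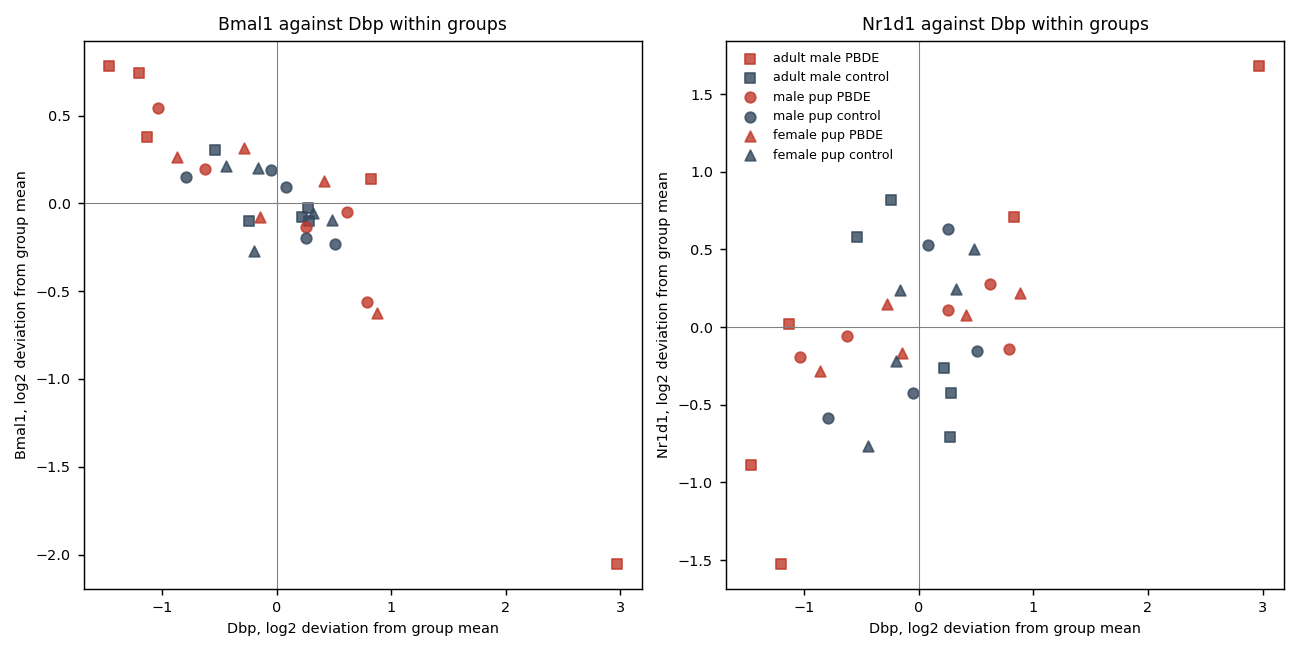
Deviation from the group mean (log2) of Bmal1 (left, vertical axis) and Nr1d1 (right, vertical axis) against that of Dbp (horizontal axis), 1 point per liver, by group. Bmal1 falls along with rising Dbp at r = -0.90, and adult PBDE replicate 5 lies farthest out in both plots, while the Nr1d1 points scatter more widely.

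Over the same deviations, the genes most like Dbp were found among 9654 genes with a mean above the table median, given as a description of the 30 arrays. Tef, which encodes a transcription factor of the same family, was the most alike at r = 0.93, and at r = 0.86 without the 2 farthest arrays. It had 7.70, 7.68, 8.07, 8.29 and 9.20 in adult PBDE livers, against 7.93, 7.90, 7.69, 8.04 and 7.58 in adult controls. As for Dbp, replicates 4 and 5 of the PBDE group were the highest.

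After Tef came Hsd17b2, a steroid dehydrogenase, at r = 0.82, Klf16 at 0.81, Irf2 at 0.79, Osbpl11 at 0.78 and Tbcel at 0.77. Without the 2 farthest arrays r was 0.63 for Hsd17b2, 0.68 for Klf16, 0.57 for Irf2, 0.84 for Osbpl11 and 0.57 for Tbcel. In pups r was 0.54, 0.59, 0.51, 0.81 and 0.29 in the same order. The most opposed genes were Bmal1 at r = -0.90, Lgalsl at -0.86, Mrpl21 at -0.81, Nfil3 at -0.80, Slc45a3 at -0.77 and Ppard, which encodes a fatty acid receptor, at -0.76. Without the 2 farthest arrays r was -0.73 for Lgalsl, -0.59 for Mrpl21, -0.57 for Slc45a3 and -0.61 for Ppard. In pups r was -0.78, -0.63, -0.59 and -0.59 in the same order. Nfil3, which encodes the repressor that competes with DBP at D-boxes, had r = -0.79 without the 2 farthest arrays and r = -0.79 in pups. It had 10.06, 9.93, 9.99, 8.73 and 8.92 in adult PBDE livers, against 10.12, 10.21, 10.02, 10.21 and 10.10 in adult controls. PBDE replicates 4 and 5, the livers with the most Dbp, were far below the controls, and the other PBDE livers lay close to them.

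Of 20 further clock genes, 16 could be read. In adults 0 rose and 2 fell with PBDE, where 2.04% of all genes fell. In the same comparison 7 of the 16 had an unadjusted limma p under 0.05, where 18.5% of all genes had. In male and in female pups none passed in limma. In male pups 3 of the 16 had an unadjusted p under 0.05, where 28.3% of all genes had, and in female pups 6 had, where 25.4% of all genes had. Their median change was -0.04 in adults, -0.04 in male pups and 0.11 in female pups. Bhlhe40, a repressor of E-box genes, had 8.11, 7.46, 8.35, 7.78 and 8.29 in adult PBDE livers, against 8.84, 8.30, 9.30, 9.26 and 8.99 in adult controls. The groups overlapped only slightly, and it fell by 0.94 ± 0.22 (adjusted p 0.0125, limma).

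Nampt, the rate-limiting enzyme of NAD salvage and a rhythmic target of the clock, had 9.49, 10.01, 10.13, 9.37 and 8.82 in adult PBDE livers, against 10.28, 10.08, 10.56, 10.23 and 11.09 in adult controls. One PBDE liver lay just inside the control range. It fell by 0.88 ± 0.22 (adjusted p 0.0231, limma), and its second probe set by 1.01 ± 0.21 (adjusted p 0.00468, limma). The second probe set, 1396262_at, was dim. It had 4.70, 5.46, 5.04, 4.73 and 4.16 in adult PBDE livers, against 5.69, 5.27, 5.79, 5.57 and 6.84 in adult controls. Most of these values lay below the array medians of 5.72 to 5.77. Clock itself, read from 1390199_at, averaged 8.93 ± 0.19 in adult PBDE livers and 9.08 ± 0.19 in adult controls (SD, n = 5 each), and did not pass. Cry2 changed by 0.47 ± 0.15 in adults, with an adjusted p of 0.0965 (limma).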

How the data were processed

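Total RNA of 30 livers was hybridised to Affymetrix rat arrays. Per the labels and the submitters' processing notes, the deposited values are log2 values that the authors made with RMA, which subtracts background, equalises array distributions and summarizes probes. The version of RMA is not stated in those notes. The 57 control probe sets were set aside, and 31042 were tested. A platform table gave 1 gene for 20826 probe sets, several for 436 and none for 9780. Array names carry a prefix, taken here as array batch, that holds 3 whole groups each.

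The model had a mean for each group and was fitted by limma 3.58.1 (R 4.3.3) over the 30 arrays together, with eBayes and Benjamini-Hochberg adjustment over 31042 probe sets. The false discovery rate was 0.01 in pups and 0.05 in adults, following the series design, and 0.05 for age by dose and for age. The number of arrays limits the precision. Spread, correlation and promoter motifs were computed in Python 3.11.15, and the fit was tested on simulated data. All 14 member probe sets were kept, with no filter on low values. Further clock genes were named where a dose comparison passed, and genes like Dbp as the 6 highest and 6 lowest correlations; Clock and Cry2 were added after their values were seen. Members and lists were chosen with earlier results of these data known. Alternatives were renewed quantile normalization, a filter on dim probe sets, compared groups only, a replicate block, trended robust eBayes, a Gapdh covariate, array weights and leaving out each array.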

Additional observations from a re-analysis of the deposited data

Results flagged for a closer look

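In 5 of 84 groups of 5 arrays, 1 array lay far from the other 4 of its group for a clock probe set, and chance alone gives about 1 such group in 20. Bmal1 was low at 5.01 in adult PBDE replicate 5, and Bmal1 was high at 8.16 in adult control replicate 5, where the other 4 controls lay within 0.07 of each other. Nr1d2 was low in female control pup replicate 1 by both of its brighter probe sets, at 8.47 (1390430_at) and 7.5 (1370541_at). Cry1 was low at 7.07 in male control pup replicate 1.

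The effect of PBDE differed between adult males and male pups for Nr1d1, by 2.06 on the log2 scale, and for Noct, by 2.16, each by the limma test of the difference itself. Each dose effect was taken within 1 array batch, but adult males and male pups lay in different batches and adults were dosed on after weaning. Age, batch and length of dosing thus cannot be told apart in these differences. The call of Nr1d1 was lost in 16 of 27 alternatives and that of Noct in 15 of 27.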

How the results depend on the processing

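No called change of a member reversed direction among 2160 alternative values of 112 changes. Of the 112, 7 lost their call somewhere and 5 gained one, and 63 values of changes that were not called turned sign. In male pups 1 probe set (Noct) passed instead of 0 with the filter on dim probe sets, with compared groups only, with a replicate block, with the Gapdh covariate and with array weights, and 0 to 1 passed when 1 array was left out. In female pups 2 (Dbp and Bmal1) passed instead of 0 with compared groups only, and 0 when any 1 array was left out. In adults 1 passed instead of 4 with compared groups only, and 3 to 5 without 1 array. For age by dose 1 passed instead of 2 with compared groups only, 0 with trended robust eBayes, and 0 to 2 without 1 array. For the age difference 9 passed, and 7 to 8 without 1 array. The sex comparisons and sex by dose stayed at 0 of 14 members throughout. Over all probe sets, compared groups only gave 269 instead of 924 calls in adults and 8 instead of 14 between the sexes of PBDE pups, and the Gapdh covariate gave 4305 instead of 7146 for the age difference. By rho 14 pairs passed instead of 18. The replicate block gave 961 calls in adults over all probe sets. Same-numbered arrays had a mean residual correlation of 0.00417, with 18 of 75 pairs above 0.1, against a mean of -0.000906 for other pairs. The best match carried the same number for 11 of 30 arrays. The share of such matches by chance was not computed, so these values cannot decide whether the numbers pair the samples. The causes of these shifts were not tested. Low signal limits Nr1d1, Dbp, Per3 and Noct in adult controls, and Nr1d2 1370540_at and Per3 1388239_at throughout. It also limits Nampt 1396262_at.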

Other observations

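Cirbp, which encodes an RNA-binding protein induced by mild cold, was read by 3 probe sets in adults. The brightest changed by -0.14 ± 0.14 and did not pass (adjusted p 0.681, limma). The other two fell with PBDE, by 0.65 ± 0.12 (adjusted p 0.00142, limma) and by 0.51 ± 0.12 (adjusted p 0.0157, limma), and were singled out after their values were seen. The probe sets of this gene disagree.

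In male pups 3 of 7 glucocorticoid-responsive genes fell with PBDE and 1 rose (limma, false discovery rate 0.01), where 3.26% of all genes fell and 4.23% rose. The genes named here were singled out after their values were seen. Sgk1, a kinase induced by glucocorticoids, fell by 1.85 ± 0.32, Fkbp5 by 0.85 ± 0.13 and Tsc22d3 by 0.75 ± 0.13. Pdk4, which fasting also induces, rose by 1.34 ± 0.21. In female pups 1 of the 7 fell, Fkbp5 by 0.70 ± 0.13, and in adults none passed, with 1 at an unadjusted p under 0.05. The mean log2 value of the 7 genes was 9.58 to 9.85 in male PBDE pups and 9.97 to 10.23 in male control pups, with no overlap. In the same pups 2 of 6 feeding- and fasting-responsive genes were called lower. Fgf21, a fasting hormone of the liver, fell by 2.48 ± 0.37, and Srebf1, a regulator of lipid synthesis, fell by 0.95 ± 0.17. The mean of the 5 endothelial markers was 8.68 to 8.98 in male PBDE pups and 9.24 to 9.46 in male control pups, where Stab2 fell by 0.79 ± 0.13 and Fcgr2b by 0.89 ± 0.12. The 7 macrophage markers averaged 8.57 to 8.72 in male PBDE pups and 8.93 to 9.14 in male control pups, where C1qa fell by 0.71 ± 0.17. The 7 hepatocyte markers averaged 13.89 to 14.03 in male PBDE pups and 14.08 to 14.24 in male control pups. The relation of these shifts to each other and to the clock genes was not tested.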
